A study of Arabidopsis thaliana with 36 samples.

Results

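Alpha-expansins are secreted wall proteins that loosen the bonds between cellulose and the surrounding matrix at acid pH without cutting them, so that a cell under turgor can enlarge. Plasma membrane proton pumps acidify the wall, and the small auxin up RNA proteins of the SAUR19 clade keep those pumps active. In Arabidopsis leaves, alpha-expansins are best known from the phase of cell enlargement, and the family members differ in the tissues that use them. The 10 genes described here are *EXPA1*, *EXPA3*, *EXPA4*, *EXPA5*, *EXPA6*, *EXPA8*, *EXPA10*, *EXPA11*, *EXPA15* and *EXPA16*. They were chosen by their identifiers, as members of the family linked with leaf growth, and all 10 were found among the 19437 genes of the deposited table. Earlier results of these data were known at that choice. The authors list *EXPA10* and *EXPA11* among their bolting-associated genes, which they drew in part from these same libraries. Calls of these genes here are therefore not independent of that list.

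RNA of leaf 6 was sequenced in TM1 and TM2, which are isolates of the *atx1,3,4* triple mutant, and in WT Col-0. The mutants carry the T-DNA alleles *atx1* SALK_149002, *atx3* GABI_128H01 and *atx4* SALK_060156 in genes for histone methyltransferases of the TRITHORAX type, and the isolates came from different F1 plants of 1 cross. Plants grew in chambers under long days of low light. Harvest began at T0, on day 25, and went on at T2, T4 and T6, on days 27, 29 and 31. The harvested TM plants had bolted by the start of the harvest, whereas WT plants of the same age were vegetative, apart from bolting seen at T6. Each of the 12 groups was 1 pool of 10 leaves, which was ground and split into 3 libraries, A to C. Genotype, bolting and pool therefore cannot be told apart, and every p-value over libraries measures the spread between parts of a pool, not that between plants.

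The libraries held between 4407618 and 11714474 reads, between 4407618 and 8762249 in the 24 TM libraries and between 4871147 and 11714474 in the 12 WT libraries. The unit was FPKM, the reads on a gene scaled to the length of the gene and the depth of the library, and a single value of an alpha-expansin rested on between 1 and 807 reads. Reads came from the 3′ end of transcripts, so that FPKM compares a gene between libraries better than it compares genes with each other. Reads of the targeted genes were present in every TM library. *ATX1* had 1.61 to 7.34 FPKM in the TM libraries and 3.25 to 8.24 FPKM in the WT libraries, *ATX3* had 3.95 to 7.63 and 2.41 to 6.30 FPKM, and *ATX4* had 1.54 to 4.26 and 3.79 to 5.95 FPKM. A 3′ read does not show whether an insertion elsewhere in the gene is present, so these values do not check the labels. The authors checked the triple mutant genotype by genomic PCR and RT-PCR and reported that full-length mRNA of these genes was lacking. The summed level of 4 mesophyll genes was between 3795 and 13340 FPKM in the TM libraries and between 5191 and 13910 FPKM in the WT libraries, and 0 of 5 floral organ genes were in the table.

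The 10 genes lie at separate places on chromosomes 1, 2 and 3. No annotated gene overlapped any of them in the TAIR10.1 annotation, and none of the 50-base stretches of their longest transcripts was found a second time in the genome. In length, the longest transcripts ran between 1251 bases in *EXPA16* and 1670 bases in *EXPA3*. *EXPA11* (AT1G20190) spans chr1:6998335-6999839 on the minus strand, with 3 exons in its longest transcript. *EXPA8* (AT2G40610) spans chr2:16948791-16950705 on the minus strand, with 3 exons. *EXPA16* (AT3G55500) spans chr3:20574752-20576249 on the minus strand, with 3 exons. *EXPA10* (AT1G26770) spans chr1:9259432-9261313 on the plus strand, with 4 exons.

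These 4 genes are among the 5 called between the TMs and WT below, *EXPA11* and *EXPA8* as genes that were lower in the TMs and *EXPA16* and *EXPA10* as genes that were higher. The 250 bases before the annotated start of each are given from the RefSeq TAIR10.1 assembly, on the strand of the gene, and no other annotated gene reached into these windows. The windows are chr1:6999840-7000089, chr2:16950706-16950955, chr3:20576250-20576499 and chr1:9259182-9259431. Capitals mark the letters TATAAA of the TATA box and TGTCTC of the auxin response element, on either strand.
EXPA11: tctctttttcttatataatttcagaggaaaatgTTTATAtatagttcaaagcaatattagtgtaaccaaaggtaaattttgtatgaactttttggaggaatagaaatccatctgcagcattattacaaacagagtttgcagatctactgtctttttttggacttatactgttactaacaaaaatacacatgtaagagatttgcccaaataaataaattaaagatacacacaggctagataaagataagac
EXPA8: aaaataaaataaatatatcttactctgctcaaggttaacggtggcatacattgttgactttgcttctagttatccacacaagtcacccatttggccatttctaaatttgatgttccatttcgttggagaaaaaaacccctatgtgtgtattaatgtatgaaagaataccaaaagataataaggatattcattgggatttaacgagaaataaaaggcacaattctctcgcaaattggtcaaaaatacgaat
EXPA16: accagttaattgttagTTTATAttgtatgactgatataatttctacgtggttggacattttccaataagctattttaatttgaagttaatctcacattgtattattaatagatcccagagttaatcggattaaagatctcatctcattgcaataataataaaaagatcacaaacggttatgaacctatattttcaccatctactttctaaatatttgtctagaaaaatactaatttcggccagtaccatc
EXPA10: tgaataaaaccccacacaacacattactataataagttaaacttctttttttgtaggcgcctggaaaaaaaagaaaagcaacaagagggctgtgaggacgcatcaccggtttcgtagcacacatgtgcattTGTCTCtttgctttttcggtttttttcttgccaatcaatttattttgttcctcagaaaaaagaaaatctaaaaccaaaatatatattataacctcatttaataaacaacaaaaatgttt

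Both strands were searched for 5 motifs: the G-box CACGTG, the brassinosteroid response letters CGTGTG and CGTGCG, which can overlap the G-box, TGTCTC and TATAAA. The auxin letters stood in the window of *EXPA10*, 119 bases before the start, and was not in the windows of *EXPA11*, *EXPA8* and *EXPA16*. It was also found at 2 places before *EXPA5* and at 1 place before *EXPA6*, and 10.9% of the windows of 27443 protein-coding genes held it. TATAAA, held by 47.3% of all windows, was on the other strand in *EXPA11* and *EXPA16* and absent from the windows of *EXPA8* and *EXPA10*. CACGTG (6.49% of all windows) and CGTGCG (1.57%) were in none of the 10 windows, and CGTGTG (5.37%) stood before *EXPA1* and *EXPA6*. These are matches of letters in a short window and not measured binding sites.

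All 10 genes were expressed in leaf 6, and they fell into a broad order of level. Averaged over the 12 groups, *EXPA11* had 43.0 ± 19.2 FPKM and *EXPA1* 35.0 ± 9.83 FPKM (SD between groups, n = 12). *EXPA1* is known for its part in stomatal movement. *EXPA6* followed with 18.4 ± 5.83 FPKM, *EXPA4* with 15.4 ± 7.003, *EXPA16* with 15.3 ± 15.4, *EXPA8* with 13.9 ± 8.11 and *EXPA5* with 13.7 ± 5.30 FPKM. *EXPA3* had 8.36 ± 4.31 FPKM, *EXPA10* 7.68 ± 4.86 FPKM and *EXPA15* 2.22 ± 1.53 FPKM. Neighbours in this order did not differ beyond their spread in most places. *EXPA11* was above *EXPA1* in 8 of 12 groups, *EXPA6* above *EXPA4* in 7, *EXPA16* above *EXPA8* in 5 and *EXPA8* above *EXPA5* in 5. Clearer steps separated *EXPA1* from *EXPA6*, *EXPA5* from *EXPA3* and *EXPA10* from *EXPA15*, where the first was higher in 11 of 12 groups each. Counted as reads scaled to depth with no division by length, 3 of the 10 genes kept their rank and *EXPA1*, at 48.98 RPM, was level with *EXPA11*, at 48.96 RPM.

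**Figure D1:**
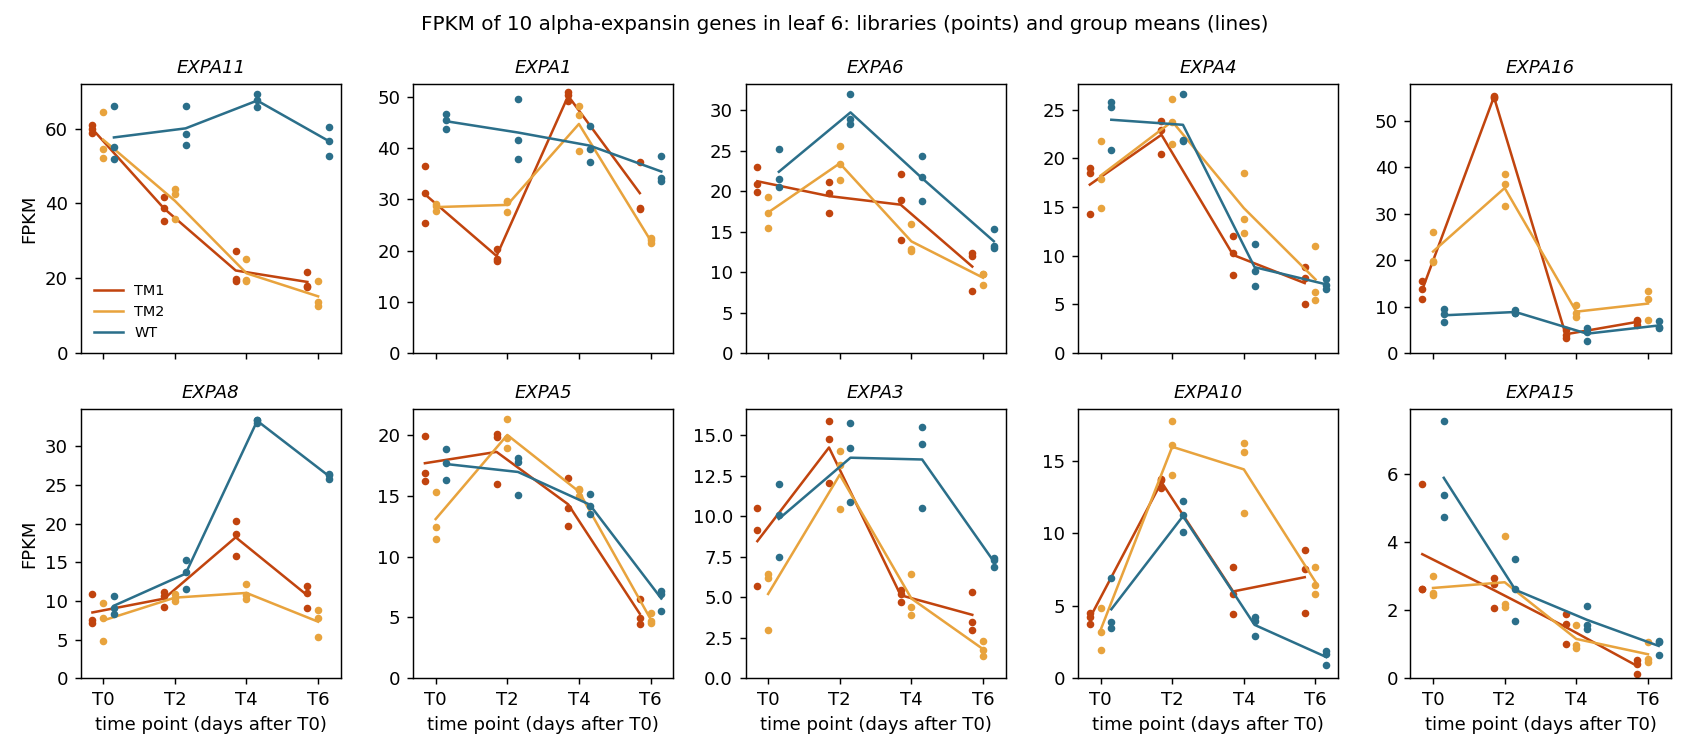
FPKM (y axis, a separate scale for each gene) of the 10 genes against time point (x axis), with a point for each library and a line through the group means of TM1, TM2 and WT. *EXPA11* goes down in both isolates while the WT libraries stay between 51.9 and 69.2 FPKM, *EXPA8* climbs in WT to 33.3 FPKM at T4, and *EXPA16* has a peak in the TMs at T2.

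*EXPA11* was lower in the TMs than in WT and was called at both T4 and T6. At T0 it had 61.0, 58.8 and 59.8 FPKM in TM1 and 54.5, 64.3 and 52.2 FPKM in TM2, against 66.1, 51.9 and 55.0 FPKM in WT, and the libraries overlapped. At T2 it had 41.8, 35.3 and 38.8 FPKM in TM1 and 43.7, 42.5 and 35.9 FPKM in TM2, against 55.7, 58.5 and 66.1 FPKM in WT. At T4 it had 19.2, 27.3 and 19.7 FPKM in TM1 and 19.5, 25.2 and 19.4 FPKM in TM2, against 67.6, 69.2 and 65.7 FPKM in WT. From T2 on, the highest of the 6 TM libraries was under the lowest of the 3 WT libraries. At T6 the values were 17.5, 21.6 and 17.9 FPKM in TM1 and 19.2, 13.7 and 12.7 FPKM in TM2, against 56.8, 60.5 and 52.7 FPKM in WT. From T0 to T6 the gene fell in both isolates, while its level in WT changed by -0.02 on the log2 scale (limma adjusted p = 0.944).

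The log2 change of *EXPA11* on the scale of log2(FPKM + 1) at T4 was -1.59 ± 0.13 in TM1 (SE, limma adjusted p = 1.83e-10) and -1.63 ± 0.13 in TM2 (adjusted p = 4.52e-11). At T6 it was -1.53 ± 0.13 in TM1 (limma adjusted p = 4.45e-10) and -1.85 ± 0.13 in TM2 (adjusted p = 5.37e-12), and mean FPKM in WT was 2.98 times that in TM1 and 3.74 times that in TM2. At T2 the change was smaller, -0.62 in TM1 (limma adjusted p = 0.000638) and -0.55 in TM2 (adjusted p = 0.00271), less than 2-fold in both isolates. The exact two-sided permutation test of 6 TM against 3 WT libraries gave p = 0.0238 at T2, T4 and T6, the smallest that the 84 arrangements allow, and p = 0.857 at T0. The TM difference grew after T0. Set against T0, the difference between TM1 and WT changed by -1.65 at T4 and -1.59 at T6, and that between TM2 and WT by -1.61 and -1.84 (limma adjusted p between 2.29e-08 and 7.06e-07).

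*EXPA8* was also lower in the TMs late in the series. From T0 to T6 its log2 change was 0.31 in TM1 (limma adjusted p = 0.151) and -0.01 in TM2 (adjusted p = 1.0), and it rose in WT by 1.39 (adjusted p = 5.86e-08). At T0 it averaged 8.51 ± 2.03 FPKM in TM1 and 7.47 ± 2.48 FPKM in TM2, against 9.38 ± 1.18 FPKM in WT (SD, n = 3 each). At T4 its libraries gave 18.7, 15.8 and 20.3 FPKM in TM1 and 10.7, 12.2 and 10.2 FPKM in TM2, against 33.1, 33.4 and 33.4 FPKM in WT. At T6 they gave 9.15, 11.04 and 11.98 FPKM in TM1 and 5.34, 7.83 and 8.78 FPKM in TM2, against 26.5, 25.7 and 26.3 FPKM in WT. At both times all 6 TM libraries were below all 3 WT libraries, and at T4 TM2 was below TM1. The log2 change at T6 was -1.22 ± 0.17 in TM1 (SE, limma adjusted p = 5.38e-06) and -1.73 ± 0.17 in TM2 (adjusted p = 4.78e-09). At T4 it was -1.51 in TM2 (limma adjusted p = 3.77e-08) and -0.84 in TM1 (adjusted p = 0.000671), short of 2-fold in TM1. The difference of *EXPA8* changed between T0 and T6 by -1.08 for TM1 (limma adjusted p = 0.00577) and -1.40 for TM2 (adjusted p = 0.000151). This last call rested on few libraries, because without the A libraries the values were -0.89 (adjusted p = 0.0860) and -1.10 (adjusted p = 0.0161), and without the B libraries -1.16 (adjusted p = 0.139) and -1.40 (adjusted p = 0.0402). In a fit of T0 and T6 alone the adjusted p for TM1 was 0.0797.

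*EXPA3* was lower in the TMs at T4. It had 5.18, 4.72 and 5.46 FPKM in TM1 and 6.45, 4.38 and 3.92 FPKM in TM2, against 10.5, 15.5 and 14.5 FPKM in WT, with no overlap. The log2 change was -1.23 ± 0.23 in TM1 (SE, limma adjusted p = 0.000214) and -1.30 ± 0.23 in TM2 (adjusted p = 6.78e-05). At T6 it averaged 3.91 ± 1.23 FPKM in TM1 and 1.80 ± 0.48 FPKM in TM2, against 7.20 ± 0.28 FPKM in WT (SD, n = 3 each). The change at T6 was -1.57 in TM2 (limma adjusted p = 6.41e-06) and -0.77 in TM1 (adjusted p = 0.0328), less than 2-fold in TM1. The growth of this difference after T0 did not pass the test in both isolates, with -1.02 for TM1 (limma adjusted p = 0.0575) and -0.46 for TM2 (adjusted p = 0.392) at T4.

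*EXPA16* had a pulse in the TMs at T2. Its libraries gave 55.4, 55.2 and 54.8 FPKM in TM1 and 31.8, 38.5 and 36.3 FPKM in TM2 at T2, against 8.70, 9.27 and 8.58 FPKM in WT. Mean FPKM was 6.23 times the WT mean in TM1 and 4.02 times in TM2, and the log2 change was 2.51 ± 0.19 in TM1 (SE, limma adjusted p = 9.66e-12) and 1.89 ± 0.19 in TM2 (adjusted p = 6.36e-09). All 6 TM libraries were already above all 3 WT libraries at T0, with 13.8, 15.5 and 11.7 FPKM in TM1 and 19.8, 26.1 and 19.7 FPKM in TM2, against 6.63, 8.36 and 9.42 FPKM in WT. The log2 change at T0 was 0.69 in TM1 (limma adjusted p = 0.0126) and 1.32 in TM2 (adjusted p = 2.34e-06), below 2-fold in TM1. At T4 the gene was down to 4.05 ± 0.79 FPKM in TM1 and 8.92 ± 1.31 FPKM in TM2, against 4.18 ± 1.504 FPKM in WT (SD, n = 3 each), and TM1 overlapped with WT. Its difference from WT changed between T0 and T2 by 1.83 for TM1 (limma adjusted p = 1.95e-05) but by 0.56 for TM2 (adjusted p = 0.162), so that this change was not called.

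*EXPA10*, whose level has been linked with leaf size in transgenic Arabidopsis, was higher in the TMs at the end of the series. At T6 it had 7.55, 8.85 and 4.53 FPKM in TM1 and 5.84, 7.66 and 6.47 FPKM in TM2, against 1.86, 1.65 and 0.887 FPKM in WT, and the groups did not overlap. The mean in TM1 was 4.76 times and that in TM2 4.54 times the WT mean. The log2 change was 1.67 ± 0.23 in TM1 (SE, limma adjusted p = 3.87e-06) and 1.65 ± 0.23 in TM2 (adjusted p = 3.31e-06). All genotypes shared the earlier part of its course: *EXPA10* was higher at T2 than at T0 by 1.496 on the log2 scale in TM1 (limma adjusted p = 3.75e-06), 2.02 in TM2 (adjusted p = 1.88e-08) and 1.12 in WT (adjusted p = 0.000295). At T4 the isolates parted, with 5.84, 7.71 and 4.43 FPKM in TM1 and 16.2, 11.4 and 15.6 FPKM in TM2, against 2.90, 4.23 and 3.92 FPKM in WT. The difference from WT changed between T0 and T6 by 1.79 for TM1 (limma adjusted p = 0.000637) and 2.07 for TM2 (adjusted p = 4.08e-05). Without the B libraries it was 1.37 for TM1 (limma adjusted p = 0.0506) and 1.54 for TM2 (adjusted p = 0.0155), which ended this call.

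**Figure D2:**
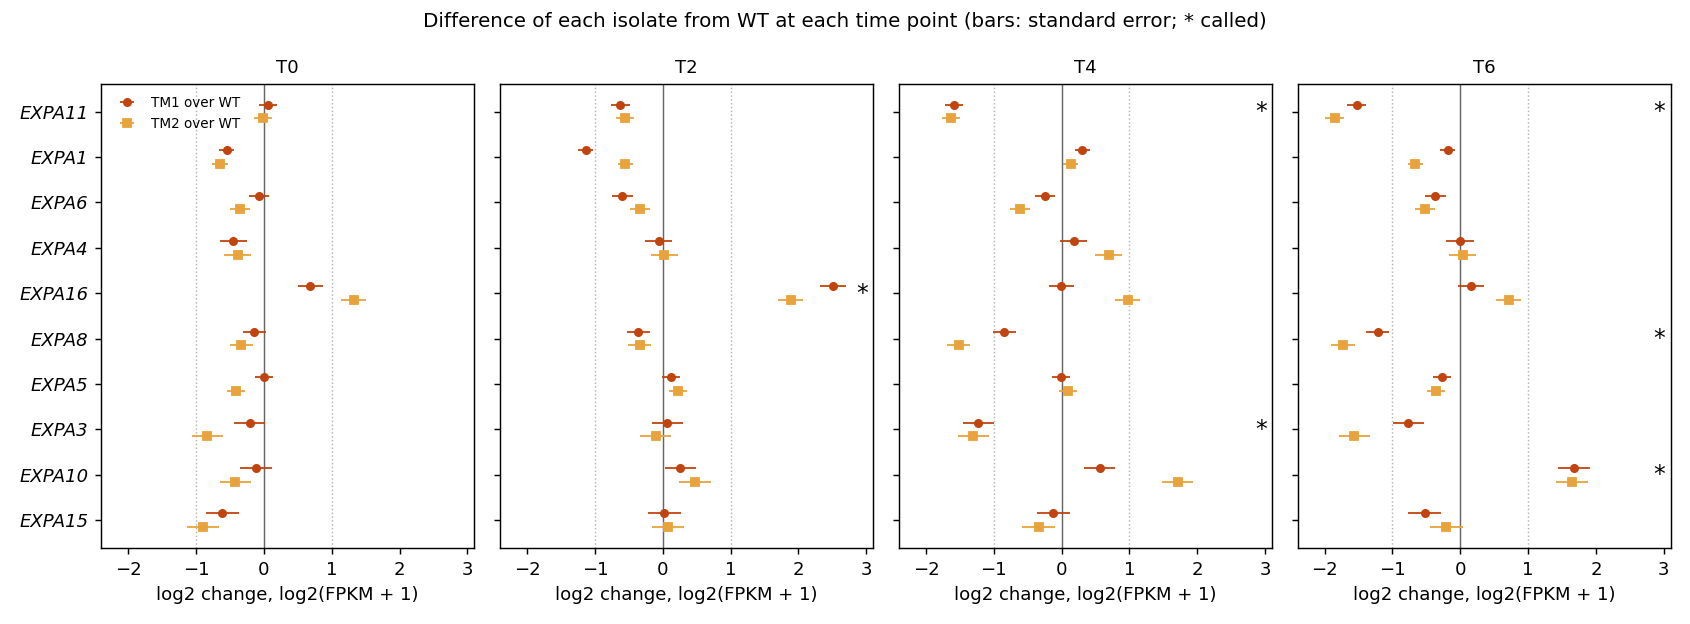
Log2 change of TM1 (circles) and TM2 (squares) over WT on the scale of log2(FPKM + 1) (x axis) for each gene (y axis), in a panel for each time point, with standard errors as bars and dotted lines at a 2-fold change. A star marks a call in both isolates: *EXPA16* at T2, *EXPA11* and *EXPA3* at T4, and *EXPA11*, *EXPA8* and *EXPA10* at T6.

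*EXPA1* was not called, but its libraries separated at T0 and T2. At T0 it had 36.4, 31.2 and 25.4 FPKM in TM1 and 28.8, 29.0 and 27.7 FPKM in TM2, against 45.5, 43.7 and 46.6 FPKM in WT. At T2 it had 20.4, 18.4 and 18.1 FPKM in TM1 and 29.5, 29.8 and 27.6 FPKM in TM2, against 38.0, 41.7 and 49.5 FPKM in WT. All 6 TM libraries were below all 3 WT libraries at both times. The log2 change was -0.55 in TM1 (limma adjusted p = 0.000878) and -0.65 in TM2 (adjusted p = 4.62e-05) at T0, and -1.14 in TM1 (adjusted p = 3.39e-09) and -0.55 in TM2 (adjusted p = 0.000425) at T2. At T4 it had a mean of 50.2 FPKM in TM1 and 44.7 FPKM in TM2, against 40.5 FPKM in WT, a log2 change of 0.31 in TM1 (adjusted p = 0.0667) and 0.14 in TM2 (adjusted p = 0.471). At T6 the change was -0.19 in TM1 (adjusted p = 0.386) and -0.66 in TM2 (adjusted p = 6.16e-05). The difference from WT changed between T0 and T4 by 0.85 for TM1 (limma adjusted p = 0.000507) and 0.79 for TM2 (adjusted p = 0.000615), short of 2-fold in both.

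The other 4 genes were not called between the TMs and WT at any time point. *EXPA5*, a gene of brassinosteroid-dependent growth, had log2 changes between -0.41 and 0.23 in the 8 comparisons of an isolate with WT. *EXPA4* had log2 changes between -0.45 and 0.70, the highest in TM2 at T4 (limma adjusted p = 0.0123). *EXPA6* was below WT in every comparison, with log2 changes between -0.07 and -0.61, and 3 of the 8 had an adjusted p under 0.05. *EXPA15* had log2 changes between -0.90 and 0.08, and its values at T6 came from 1 to 10 reads in the TM libraries and 9 to 17 reads in the WT libraries.

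Counted over the family, 0 of 10 genes were called at T0, where 0.869% of all 19437 genes were called higher and 0.52% lower. At an unadjusted p under 0.05 in both isolates, 3 of the 10 genes differed at T0 by limma (*EXPA1*, *EXPA15* and *EXPA16*), of which 0 reached 2-fold, and limma voom on recovered reads also called 0. The share of all genes at this unadjusted limit is not given, so this count cannot be set against it. At T2 1 gene was called higher, against 1.74% of all genes, and 0 lower, against 0.448%. At T4 0 genes were called higher, against 0.792% of all genes, and 2 lower, against 0.741%. At T6 1 gene was called higher, against 0.417% of all genes, and 2 lower, against 0.597%. Separation of the libraries was counted without a test. All 6 TM libraries were below all 3 WT libraries in 1, 4, 3 and 4 of the 10 genes at T0, T2, T4 and T6, where 4.98%, 10.0%, 8.73% and 6.78% of all genes did so. They were above in 1, 2, 1 and 1 of the 10 genes, where 8.4%, 17.8%, 8.85% and 10.6% of all genes did so. The median log2 change of the 10 genes was -0.25, -0.02, -0.09 and -0.39 at T0, T2, T4 and T6 as the mean of both isolates. The median over all genes in these contrasts was between 0 and 0.09.

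The growth of the TM difference after T0 was counted in the same way, with the same WT and TM libraries of T0 in each comparison. From T0 to T2 it was called in 0 of 10 genes, where 1.4% of all genes were called higher and 0.566% lower. At an unadjusted p under 0.05 in both isolates limma found 2 genes in that step (*EXPA11* and *EXPA16*), and limma voom called 0. For this unadjusted limit, too, the share of all genes is not given. From T0 to T4 it was called in 0 genes upwards, against 0.602% of all genes, and in 1 gene downwards (*EXPA11*), against 0.833%. From T0 to T6 it was called in 1 gene upwards (*EXPA10*), against 0.412% of all genes, and in 2 genes downwards (*EXPA8* and *EXPA11*), against 0.659%. With a pseudocount of 5 in place of 1, which damps low values, *EXPA11* alone kept its calls at T4 and T6, and *EXPA3* at T4 and *EXPA8* and *EXPA10* at T6 fell short of 2-fold in at least 1 isolate.

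When the 3 libraries of a group were reduced to their mean, so that a pool counted once, 1 of 10 genes passed the same limits. That was *EXPA16*, with a log2 change of 1.03 ± 0.28 over all time points (SE, limma adjusted p = 0.0329, 8 TM pools and 4 WT pools), where 0.545% of all genes were called higher and 0.376% lower. In this fit of pools *EXPA11* had -0.97 (limma adjusted p = 0.0153), *EXPA8* -0.81 (adjusted p = 0.0213), *EXPA3* -0.74 (adjusted p = 0.0365) and *EXPA6* -0.39 (adjusted p = 0.0262), all below 2-fold as means over 4 time points. *EXPA10* had 0.72 (limma adjusted p = 0.0986).

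The course over 6 days was compared within each genotype, and a gene was counted as risen or fallen only where it was called. From T0 to T6, 0 genes rose and 4 fell in TM1 (*EXPA4*, *EXPA5*, *EXPA11* and *EXPA15*), where 6.92% of all genes rose and 4.32% fell. In TM2 0 rose and 5 fell (the same genes and *EXPA3*), where 6.41% of all genes rose and 4.41% fell. In WT 1 rose (*EXPA8*) and 4 fell (*EXPA4*, *EXPA5*, *EXPA10* and *EXPA15*), where 6.94% of all genes rose and 4.02% fell. The median change of the 10 genes was -0.94 in TM1, -1.05 in TM2 and -0.52 in WT on the log2 scale, whereas the median of all genes was 0.11, 0.13 and 0.10. The count in TM1 was 7 under both median ratio scaling and quantile normalization, with *EXPA3*, *EXPA6* and *EXPA16* in addition, and it was also 7 without the C libraries. The shares of all genes under these settings are not given.

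*EXPA4*, *EXPA5* and *EXPA15* were called as fallen from T0 to T6 in all genotypes. *EXPA6* also fell in all of them but short of 2-fold. Its log2 change was -0.95 in TM1 (limma adjusted p = 4.2e-06), -0.83 in TM2 (adjusted p = 3.62e-05) and -0.66 in WT (adjusted p = 0.000631). *EXPA5* had 17.7, 18.6, 14.3 and 5.29 FPKM in TM1 and 13.1, 20.0, 15.3 and 4.87 FPKM in TM2 at T0, T2, T4 and T6, against 17.6, 17.0, 14.3 and 6.55 FPKM in WT. Its fall came between T4 and T6, with log2 changes of -1.29 ± 0.13 in TM1, -1.48 ± 0.13 in TM2 and -1.02 ± 0.13 in WT (SE, limma adjusted p between 7.39e-10 and 1.86e-06). *EXPA4* fell 1 step earlier in TM1 and WT. It had 17.3, 22.4, 10.08 and 7.19 FPKM in TM1 and 18.2, 23.8, 14.9 and 7.56 FPKM in TM2 at the 4 times, against 24.0, 23.4, 8.82 and 7.06 FPKM in WT. Its change from T2 to T4 was -1.09 in TM1 (limma adjusted p = 9.21e-05), -0.66 in TM2 (adjusted p = 0.0229) and -1.33 in WT (adjusted p = 4.04e-06). *EXPA15* had 3.65 FPKM in TM1 and 2.66 FPKM in TM2 at T0, against 5.90 FPKM in WT, and 0.361 FPKM in TM1 and 0.706 FPKM in TM2 at T6, against 0.952 FPKM in WT. Leaving out the C libraries took *EXPA4* in TM2 to a log2 change of -0.98 from T0 to T6, just short of 2-fold, and leaving out the B libraries took *EXPA3* in TM2 to -0.83.

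**Figure D3:**
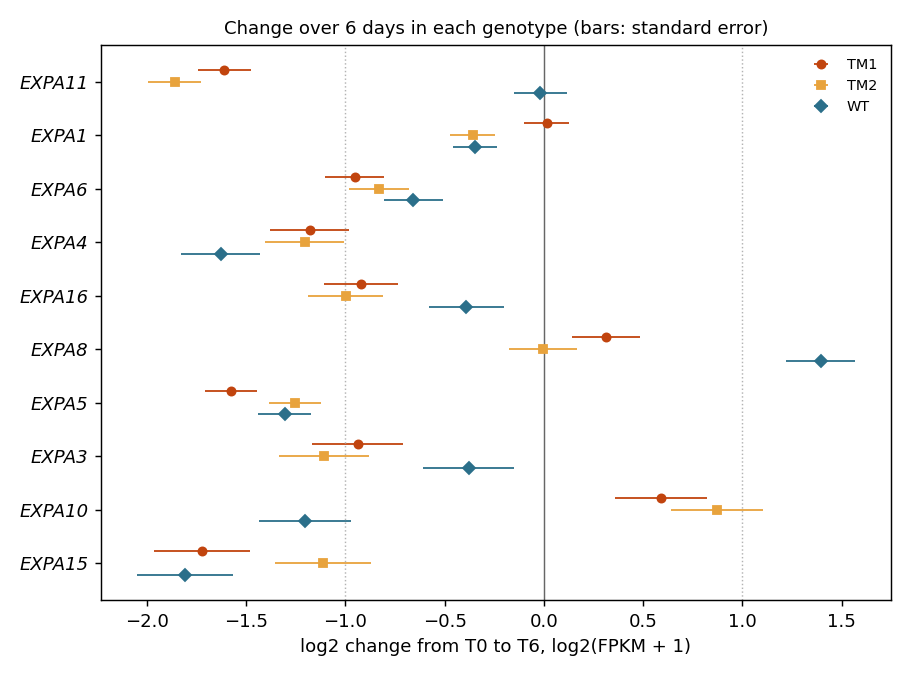
Log2 change from T0 to T6 on the scale of log2(FPKM + 1) (x axis) for each gene (y axis) in TM1, TM2 and WT, with standard errors as bars and dotted lines at a 2-fold change. *EXPA4*, *EXPA5* and *EXPA15* lie below -1 in all genotypes, *EXPA11* lies at -1.61 in TM1 and -1.86 in TM2 against -0.02 in WT, and *EXPA10* lies above 0 in the TMs and at -1.20 in WT.

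In the single steps a gene was counted as risen or fallen at a limma adjusted p under 0.05 and a change of at least 2-fold. Between T0 and T2 2 genes rose in TM1 (*EXPA10* and *EXPA16*), 2 in TM2 (*EXPA3* and *EXPA10*) and 1 in WT (*EXPA10*), where 6.78%, 7.17% and 4.14% of all genes rose. In that step 0 were called lower, where 2.92%, 2.12% and 2.65% of all genes fell in TM1, TM2 and WT. Short of 2-fold, *EXPA11* changed by -0.62 in TM1 (limma adjusted p = 0.000378) and -0.48 in TM2 (adjusted p = 0.0053). *EXPA1* changed by -0.67 in TM1 (adjusted p = 1.27e-05) and *EXPA15* by -0.95 in WT (adjusted p = 0.00278). Between T2 and T4 4 genes fell in TM1 (*EXPA3*, *EXPA4*, *EXPA10* and *EXPA16*), 2 in TM2 (*EXPA3* and *EXPA16*) and 2 in WT (*EXPA4* and *EXPA10*), where 1.85%, 1.15% and 1.34% of all genes fell. Over the same days 1 gene rose in TM1 (*EXPA1*), 0 in TM2 and 1 in WT (*EXPA8*), where 3.23%, 0.988% and 3.66% of all genes rose. In this step *EXPA11* changed by -0.79 in TM1 (limma adjusted p = 2.90e-05) and -0.91 in TM2 (adjusted p = 8.2e-06), again short of 2-fold. Between T4 and T6 *EXPA5* fell in every genotype, and *EXPA3* and *EXPA10* fell in TM2, where 1.74%, 1.23% and 0.72% of all genes fell in TM1, TM2 and WT. None of the 10 genes rose in this last step, where 0.869%, 0.448% and 0.35% of all genes rose. The deepest step was that of *EXPA16* in TM1, with a log2 change of -3.49 ± 0.19 between T2 and T4 (SE, limma adjusted p = 6.51e-16).

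Added up over the 10 genes, alpha-expansin FPKM was closest between genotypes at T2 and further apart at T4 and T6. The sum was 185.5 ± 11.8 in TM1 and 174.7 ± 12.5 in TM2 at T0, against 204.9 ± 7.63 in WT (SD, n = 3 each). At T2 it was 213.8 ± 1.33 in TM1 and 214.2 ± 3.91 in TM2, against 223.0 ± 8.52 in WT. This sum at T2 joined a higher *EXPA16* with a lower *EXPA1* and *EXPA11* in the TMs, so its members were not alike. At T4 it was 149.9 ± 5.96 in TM1 and 150.5 ± 8.85 in TM2, against 209.1 in WT, where the libraries ran between 197.1 and 222.9. At T6 it was 102.1 ± 3.76 in TM1 and 86.0 ± 6.25 in TM2, against 161.3 ± 7.73 in WT. Much of the gap was *EXPA11*. Without it the sum at T4 was 127.8 ± 7.86 in TM1 and 129.2 ± 8.14 in TM2, against 141.6 ± 12.1 in WT, and at T6 83.1 ± 5.69 in TM1 and 70.9 ± 6.97 in TM2, against 104.6 ± 6.35 in WT. At T2 the sum without *EXPA11* was higher in the TMs, with 175.2 ± 4.44 in TM1 and 173.5 ± 4.24 in TM2, against 162.9 in WT. The sums are descriptions with no test.

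The leading gene also changed. *EXPA11* held 32.3% of the summed FPKM in TM1 and 32.7% in TM2 at T0, against 28.1% in WT. At T6 *EXPA1* led with 30.6% in TM1 and 25.6% in TM2, whereas *EXPA11* still led in WT with 35.1%. At T2 *EXPA16* led in TM1 with 25.8% and came next to *EXPA11* in TM2 with 16.6%. These shares compare genes by FPKM, which 3′ reads do less well. In reads of libraries A, B and C of TM2 at T2, *EXPA16* had 257, 285 and 257 and *EXPA1* 302, 279 and 247. A ratio of 2 genes of the same library does not depend on the scaling of libraries. The ratio of *EXPA11* to *EXPA1* was 0.441 ± 0.0984 in TM1 and 0.477 ± 0.0530 in TM2 at T4, against 1.67 ± 0.0983 in WT (SD, n = 3 each). The ratio of *EXPA10* to *EXPA8* was 0.668 ± 0.252 in TM1 and 0.935 ± 0.182 in TM2 at T6, against 0.0560 ± 0.0195 in WT. These pairs were chosen after their values were seen.

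**Figure D4:**
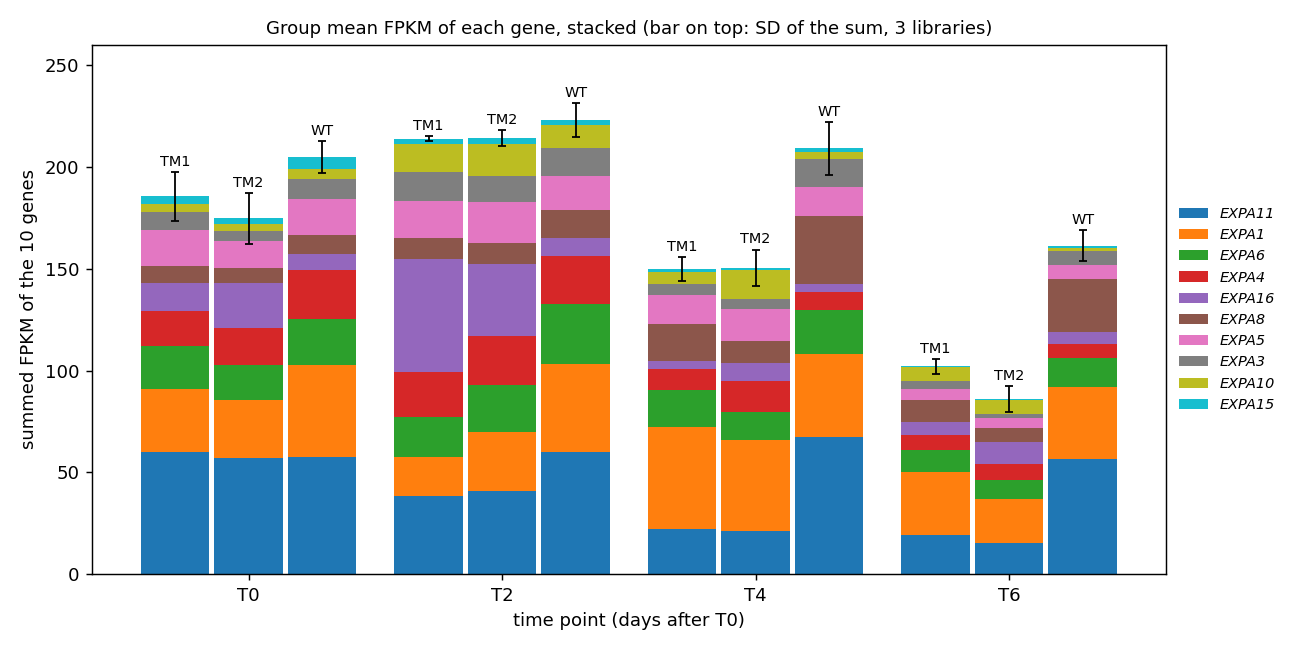
Group mean FPKM of the 10 genes, stacked (y axis, summed FPKM), in TM1, TM2 and WT at each time point (x axis), with the SD of the sum over 3 libraries as a bar. The WT stacks at T4 and T6 keep *EXPA11* and gain *EXPA8*, and the TM stacks at T2 hold a broad band of *EXPA16*.

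The isolates were also compared with each other. Between TM1 and TM2, 0 of 10 genes were called at T0, T2 and T6 and 1 gene at T4. Limma called 0.401%, 0.278%, 0.545% and 1.09% of all genes at T0, T2, T6 and T4. The called member was *EXPA10*, with a log2 change of TM1 over TM2 of -1.15 ± 0.23 (SE, adjusted p = 0.0011). *EXPA16* differed in the same way at T4 with a log2 change of -0.98 (limma adjusted p = 0.00061), just under 2-fold. *EXPA8* also differed at T4, by 0.67 (limma adjusted p = 0.0117). *EXPA1* differed by -0.59 at T2 (adjusted p = 0.00272) and by 0.48 at T6 (adjusted p = 0.0120), all short of 2-fold. At an unadjusted p under 0.05, 3 genes differed at T0, 2 at T2 and 5 at T6. Limma voom called 0 at these times. The same limit was passed by 5 genes at T4, where limma voom called 2. How many of all genes passed the unadjusted limit is not given, so these counts cannot be read as particular to the family.

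The genes did not share a single pattern. Over the 45 pairs, the Pearson correlation of the 12 group means of log2(FPKM + 1) had a median of 0.36 and ran between -0.74 for *EXPA1* with *EXPA16* and 0.87 for *EXPA3* with *EXPA6*. *EXPA4*, *EXPA5*, *EXPA6* and *EXPA15*, all lower at T6 than at T0, correlated with each other at 0.75 to 0.86, and *EXPA8* correlated with *EXPA4* at -0.43. The groups share genotypes and plant ages, so these values are descriptions with no p.

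The genes most like each called member were sought among 11210 genes with a mean of at least 5 FPKM, by the same correlation over 12 group means. *EXPA11* was most like AT2G10940 (r = 0.96), AT5G41140 (r = 0.96) and AT1G30280 (r = 0.96). *EXPA8* was most like *AFP2* (r = 0.86), AT5G03120 (r = 0.85) and *BEE2* (r = 0.84), a brassinosteroid-induced transcription factor gene. *EXPA16* was most like *CER1* (r = 0.95), which is needed for alkanes of the cuticular wax, AT1G12330 (r = 0.93) and AT3G17640 (r = 0.92). *EXPA10* was most like AT1G29160 (r = 0.95), AT3G25590 (r = 0.94) and *DEAR3* (r = 0.92). *EXPA3* was most like *RALFL34* (r = 0.95), *PSBQA* (r = 0.95) and AT5G37790 (r = 0.95). *EXPA4* was most like *CSD2*, *IQD24* and AT1G68810 (r between 0.91 and 0.93), *EXPA5* AT3G25130, AT4G28310 and *DUT1* (r between 0.95 and 0.96), and *EXPA15* AT3G15520, *RPS15A* and *PPa6* (r between 0.96 and 0.97). *EXPA1* was most like *TIR* (r = 0.88), AT4G23530 (r = 0.83) and AT3G59310 (r = 0.79).

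Other genes of wall loosening and growth were counted from lists. Of all genes, 0.52%, 0.448%, 0.741% and 0.597% were called lower in the TMs at T0, T2, T4 and T6. The shares called higher were 0.869%, 1.74%, 0.792% and 0.417%. Of 25 other expansin genes 10 were in the table, and 0 were called between the TMs and WT at any time. *EXPB1*, a beta-expansin, fell from T0 to T6 in all genotypes, to 0.468 FPKM in TM1, 0.247 FPKM in TM2 and 0.898 FPKM in WT at T6 (log2 changes -1.22, -1.37 and -1.39, limma adjusted p between 0.000449 and 0.00164). Of 6 proton pump genes in the table, *AHA11* was called lower in the TMs at T4. It averaged 17.5 FPKM in TM1 and 14.8 FPKM in TM2, against 38.8 FPKM in WT, with log2 changes of -1.10 (limma adjusted p = 6.51e-08) and -1.34 (adjusted p = 6.61e-10). Of 6 genes of the SAUR19 clade, *SAUR23* was called lower at T0, with 4.35 FPKM in TM1 and 4.68 FPKM in TM2, against 12.9 FPKM in WT. *SAUR20* was called lower at T6, with 1.35 FPKM in TM1 and 0.635 FPKM in TM2, against 5.44 FPKM in WT. These genes have near-identical copies, so that their reads may be split uncertainly. At T4 0 of the 6 were called and the libraries of the isolates did not overlap, with a mean summed level of 34.7 FPKM in TM1 and 10.6 FPKM in TM2, against 41.9 FPKM in WT. At T6 the median log2 change of the 6 genes, as the mean of both isolates, was -1.20, where that of all genes was between 0.06 and 0.07. None of 15 genes of cellulose and xyloglucan synthesis was called between the TMs and WT by limma, and their median log2 change was -0.37 at T4 and -0.40 at T6.

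Marker genes of leaf cell types gave values to set beside these results. The summed level of 4 genes of dividing cells was 19.3 FPKM in TM1 and 24.5 FPKM in TM2 at T0, against 22.1 FPKM in WT, and 8.49 FPKM in TM1 and 6.73 FPKM in TM2 at T6, against 12.3 FPKM in WT. At T4 it was between 8.92 and 12.1 FPKM in the TM libraries and between 19.5 and 20.9 FPKM in the WT libraries, without overlap, and 0 of the 4 genes were called. Most of that sum was *KNOLLE*, a gene of cytokinesis named after its values were seen, with 6.97 FPKM in TM1 and 6.60 FPKM in TM2, against 14.9 FPKM in WT. At T4 *CDKB2;1* had 2.14 FPKM in TM1 and 1.78 FPKM in TM2, against 3.1 FPKM in WT. *CYCB1;2* had 1.15 and 0.653 FPKM, against 1.08 FPKM, and *CYCD3;1* 1.23 and 0.940 FPKM, against 1.135 FPKM, so both were above WT in TM1. Of 6 listed genes of dividing cells, 4 were in the table. The mesophyll sum at T6 was 5377 FPKM in TM1 and 3989 FPKM in TM2, against 5702 FPKM in WT, and the vascular sum of 5 genes was 136.2 FPKM in TM1 and 155.8 FPKM in TM2, against 101.3 FPKM in WT. Within the vascular sum *SUC2*, *SWEET11* and *SWEET12* were above WT in both isolates. *XCP1* was below it, with 4.48 FPKM in TM1 and 4.21 FPKM in TM2, against 6.60 FPKM in WT. *APL* had 6.61 FPKM in TM1 and 7.61 FPKM in TM2, against 7.16 FPKM in WT. The guard cell sum of 4 genes was 39.9 FPKM in TM1 and 42.9 FPKM in TM2 at T6, against 36.0 FPKM in WT, and the libraries overlapped. Its largest part was *FAMA*, with 20.9 FPKM in TM1 and 22.9 FPKM in TM2, against 17.2 FPKM in WT. *MYB60* and *SLAC1* were also above WT in both isolates. *KAT1* was below it, with 8.6 FPKM in TM1 and 8.2 FPKM in TM2, against 9.1 FPKM in WT. Over time *LHCB1.1*, a light-harvesting protein gene of the mesophyll, and *XCP1*, a protease gene of xylem, fell in all genotypes, and the sugar transporter genes *SWEET11* and *SWEET12* rose in all. None of the marker genes was called between the TMs and WT by limma. In bulk leaf RNA, fewer cells of a type and less RNA per cell cannot be told apart, and the part of these markers in the alpha-expansin results was not tested.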

How the data were processed

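The authors prepared 3′ directional libraries, aligned the reads with Rsubread to TAIR 10, used NOISeq to turn counts into FPKM and HTSFilter to drop genes of low expression. The deposited values are FPKM of 19437 genes in 36 libraries, and no count table was used. Whole reads were recovered from the steps of the FPKM values (100.0% of values whole, to within 7.85e-05 of a read) and were used for the limma voom alternative, the order of levels without gene length, the read numbers given beside values and the depths, which ran between 4407618 and 11714474 reads.

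FPKM were analysed as log2(FPKM + 1) with limma 3.58.1 in R 4.3.3, in 1 fit of 12 group means with a variance trend, and p-values were adjusted over all genes in each contrast by Benjamini-Hochberg. A gene was called at an adjusted p under 0.05 and a change of at least 2-fold, in both isolates and in the same direction for TM against WT. Fold changes on this scale understate the change of low genes. Single genes were compared by a two-sided exact permutation test. Scripts were tested on simulated data. Promoters and gene models came from RefSeq TAIR10.1.

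The members and the gene lists were chosen with earlier results of these data known. Every member was named, from the other lists the genes called between TM and WT or from T0 to T6 in all 3 genotypes (at most 3 in each direction), and for each called member the 3 genes most like it. Alternatives changed the pseudocount, scaling, filter, fold limit, variance model, samples and replicate block.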

Additional observations from a re-analysis of the deposited data

Results flagged for a closer look

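Effects of genotype that differed between time points, by the test of the change of the TM difference since T0, were found in 3 genes. For *EXPA11*, the TM difference from WT on the scale of log2(FPKM + 1), averaged over both isolates, changed by -1.63 from T0 to T4 and by -1.72 from T0 to T6. For *EXPA8* it changed by -1.24 from T0 to T6, and for *EXPA10* by 1.93 from T0 to T6. All 4 changes passed an adjusted p of 0.05 by limma and a 2-fold change in both isolates. The call of *EXPA8* was lost without the A or without the B libraries and that of *EXPA10* without the B libraries, and both were lost with a pseudocount of 5. The comparisons share the libraries of T0, and bolting, genotype and pool cannot be told apart.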

How the results depend on the processing

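Without a fold limit, 2 genes were called between TM and WT at T0 and 3 at T2, 2 in the change from T0 to T4, and 8 in TM1 and 9 in TM2 from T0 to T6. At 1.5-fold, the counts were 1 at T0, 2 in the change to T4, and 8 in TM1 and 8 in TM2. A pseudocount of 5 gave 1 call at T4, 1 at T6, 1 in the change to T6, 0 between isolates at T4, and from T0 to T6 2 in TM1, 1 in TM2 and 2 in WT. A pseudocount of 0.1 gave 7 in TM1 from T0 to T6, and 2 calls between isolates at T4 and 1 at T6. Median ratio scaling and quantile normalization each gave 7 in TM1. Without 1 library letter, the count in TM1 ran between 4 and 7 and that of the change to T6 between 1 and 3. Reads scaled to depth alone kept the rank of 3 of 10 genes in the order of level. The shares of all genes under these changed settings are not given, so these counts cannot be read as particular to the family. The causes of these shifts were not tested. Among 36 single values under 12 alternatives each, 396 of 432 kept their side of the limits, 14 lost a call, 22 gained one and 0 turned direction; 12 of the 14 losses came with the pseudocount of 5. The replicate block changed no call. In 24 pairs of a TM and a WT library of the same letter and time point, the deviations correlated between -0.15 and 0.18, with 3 over 0.1. These pairs showed no clear pairing of TM with WT by letter. Pairing by letter between TM1 and TM2 or across time points was not tested. *EXPA15* had the lowest level, with 1 to 17 reads in a library at T6.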
